A study of Homo sapiens with 36 samples.

Results

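The genes described here are 10 acute-phase, complement and antiprotease genes: C1R, C1S, C3, CFB, CP, SAA1, SAA2, PI3, SLPI and IL32. They are 10 of the 27852 genes with a symbol in the deposited table, and they were picked with their levels in MG63 co-culture and in the mono-cultures of these same libraries already known. In comparisons that use the MG63 co-cultures or the mono-cultures without RANKL, single genes of the 10 are therefore given with no p-value, and counts of calls among them are a description. RNA was measured in 36 libraries of 4 established human prostate cancer (PCa) cell lines. C4-2 and C4-2B were classed as osteoblastic (BPCa), and DU145 and 22Rv1 as osteolytic (LPCa). Each line was grown alone (mono-culture, n = 3), beside MG63 human osteoblast-like osteosarcoma cells (n = 2), alone with 50 ng/mL soluble RANKL (n = 2), or with RANKL beside RAW264.7 mouse pre-osteoclasts (n = 2). The co-cultured cells were held in separate wells joined through a 0.6 µm filter, so soluble factors and vesicles could pass and cells could not, and the RNA is that of the PCa side.

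C1R and C1S are the serine proteases of the first complement component, which start the classical pathway. C3 is the component on which the complement pathways converge, and CFB supplies the protease of the alternative pathway. CP is the copper-carrying ferroxidase ceruloplasmin, SAA1 and SAA2 are acute-phase apolipoproteins, PI3 (elafin) and SLPI are secreted inhibitors of neutrophil elastase, and IL32 is a cytokine. Many of these genes are known to respond in epithelia and liver to IL-1, TNF and IL-6 family cytokines, which act through NF-kappa B, C/EBP and STAT factors.

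The 12 mono-cultures without RANKL held 23932472 to 36719047 counts each, and the other 24 libraries 9593426 to 15418211. CPM denotes the count of a gene per 1000000 counts in its library, and 3 counts, at most 0.125 CPM in the deeper libraries and 0.313 CPM in the others, were taken as the detection limit. The deeper libraries were all mono-cultures without RANKL, so depth and the comparison with them cannot be told apart. Summed levels of 4 epithelial markers were 672 to 688 CPM in 22Rv1 mono-culture and 1050 to 1080 CPM in DU145 mono-culture. The sum of 6 luminal prostate markers was 28.8 to 32.7 CPM in DU145 and 7160 to 7390 CPM in C4-2 mono-culture, so DU145 held little of the luminal markers. The luminal sum moved with culture in the BPCa lines: in C4-2 it was 5850 to 6010 CPM with MG63 and 5940 to 6070 CPM with RANKL. In C4-2B it was 7950 to 8310 CPM alone, 5970 to 6250 CPM with MG63 and 5090 to 5170 CPM with RANKL. The epithelial sum of 22Rv1 was 911 to 954 CPM with MG63. The part of these shifts in the results was not tested. Of 16 mesenchymal markers of MG63, 9 were above 3 counts with MG63 in C4-2 and in 22Rv1, and 8 in C4-2B and in DU145. Alone, 12 were above 3 counts in DU145 and 11 in each other line. POSTN was above 3 counts in 22Rv1 with MG63 and not alone, while THY1 and MMP2 were at or under 3 counts in all MG63 co-cultures. The summed level was 7.43 to 12.3 CPM in C4-2 with MG63 against 10.5 to 11.3 CPM without. It was 8.53 to 9.08 against 9.79 to 11.7 CPM in C4-2B. In DU145 it was 23.1 to 32.2 against 19 to 20 CPM and in 22Rv1 27.5 to 27.9 against 21.2 to 25.7 CPM, above mono-culture in both. Carry-over of MG63 RNA was not tested.

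SAA1 and SAA2 lie 17530 bases apart on chromosome 11, at chr11:18266174-18269977 and chr11:18239223-18248643 (GENCODE 29, GRCh38). Their coding sequences are both 369 bases long and differ at 11 bases. Bases 185 to 369 are shown, with the 10 differences that fall in them in capitals, because reads can be split between the genes. Of the 31-base words of their annotated transcripts, 53.2% of those of SAA1 and 20.1% of those of SAA2 occur in the other gene, so the division of counts between the pair is uncertain.
SAA1 coding sequence: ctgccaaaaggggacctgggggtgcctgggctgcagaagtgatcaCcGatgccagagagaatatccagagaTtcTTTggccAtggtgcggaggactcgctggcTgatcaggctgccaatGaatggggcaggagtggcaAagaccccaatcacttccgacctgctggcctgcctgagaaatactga
SAA2 coding sequence: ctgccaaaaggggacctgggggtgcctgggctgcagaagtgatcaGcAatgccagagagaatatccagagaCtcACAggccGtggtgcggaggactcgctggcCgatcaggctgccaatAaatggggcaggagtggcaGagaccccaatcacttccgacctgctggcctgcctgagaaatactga

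RefSeq promoters on GRCh38.p14 were at hand for 3 of the 10 genes. The 250 bases before the start of CFB and of the first IL32 start are shown as examples from genes that were higher with MG63 in C4-2 and C4-2B, and capitals mark a match to a motif of the factors named above.
CFB, chr6:31945845-31946094, plus strand: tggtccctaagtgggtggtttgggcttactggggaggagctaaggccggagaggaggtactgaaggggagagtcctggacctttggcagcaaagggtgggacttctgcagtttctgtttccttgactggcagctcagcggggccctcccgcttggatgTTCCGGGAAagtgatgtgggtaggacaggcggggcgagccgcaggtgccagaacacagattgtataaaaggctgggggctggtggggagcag
IL32, chr16:3065153-3065402, plus strand: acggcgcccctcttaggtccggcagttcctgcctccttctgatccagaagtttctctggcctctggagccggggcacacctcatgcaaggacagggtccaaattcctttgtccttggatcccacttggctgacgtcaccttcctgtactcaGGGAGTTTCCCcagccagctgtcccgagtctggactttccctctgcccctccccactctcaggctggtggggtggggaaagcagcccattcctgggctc
The capitals in CFB are a STAT motif (TTCNNNGAA), found in 7.66% of 35116 promoters, and those in IL32 are 2 overlapping matches to the kappa B motif, found in 5.91%. Both strands were searched, and the C/EBP motif (TTGCNNAA), found in 10.5% of promoters, was in neither of these windows. The other windows at hand were a second one of IL32, with no match, and 2 of C1R, whose levels with MG63 and alone overlapped in all 4 lines. Both C1R windows hold a C/EBP match and 1 of them also a STAT match. A match is a description of the letters and shows no binding.

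In C4-2 and C4-2B with MG63, SAA1, SAA2, PI3, CFB, CP, IL32 and SLPI were all higher than in mono-culture. In DU145, SAA1, SAA2, PI3, C3, SLPI and IL32 were higher and CFB was not, and in 22Rv1 no gene of the 10 exceeded 2.24 CPM in MG63 co-culture. Past a fitted 2-fold, 8 of the 10 genes were higher in C4-2 (2.8% of 13437 genes), 7 in C4-2B (2.45%), 6 in DU145 (3.47%) and 2 in 22Rv1 (2.34%). Those in C4-2 include C1R, whose groups overlapped. Those in 22Rv1 were SAA1, at or under 3 counts in both cultures, and SLPI, at 5.58 and 8.19 counts with MG63, whose groups overlapped. None of the 10 was past 2-fold lower in any line, where 2.1%, 2.66%, 2.93% and 2.01% of all genes were. These counts are what the genes were picked on, and nothing is read from them. The median fitted log2 fold change of the 10 was 4.25 in C4-2, 2.76 in C4-2B, 1.13 in DU145 and 0.14 in 22Rv1, against -0.01, 0.00, -0.06 and 0.00 over all genes.

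**Figure D1:**
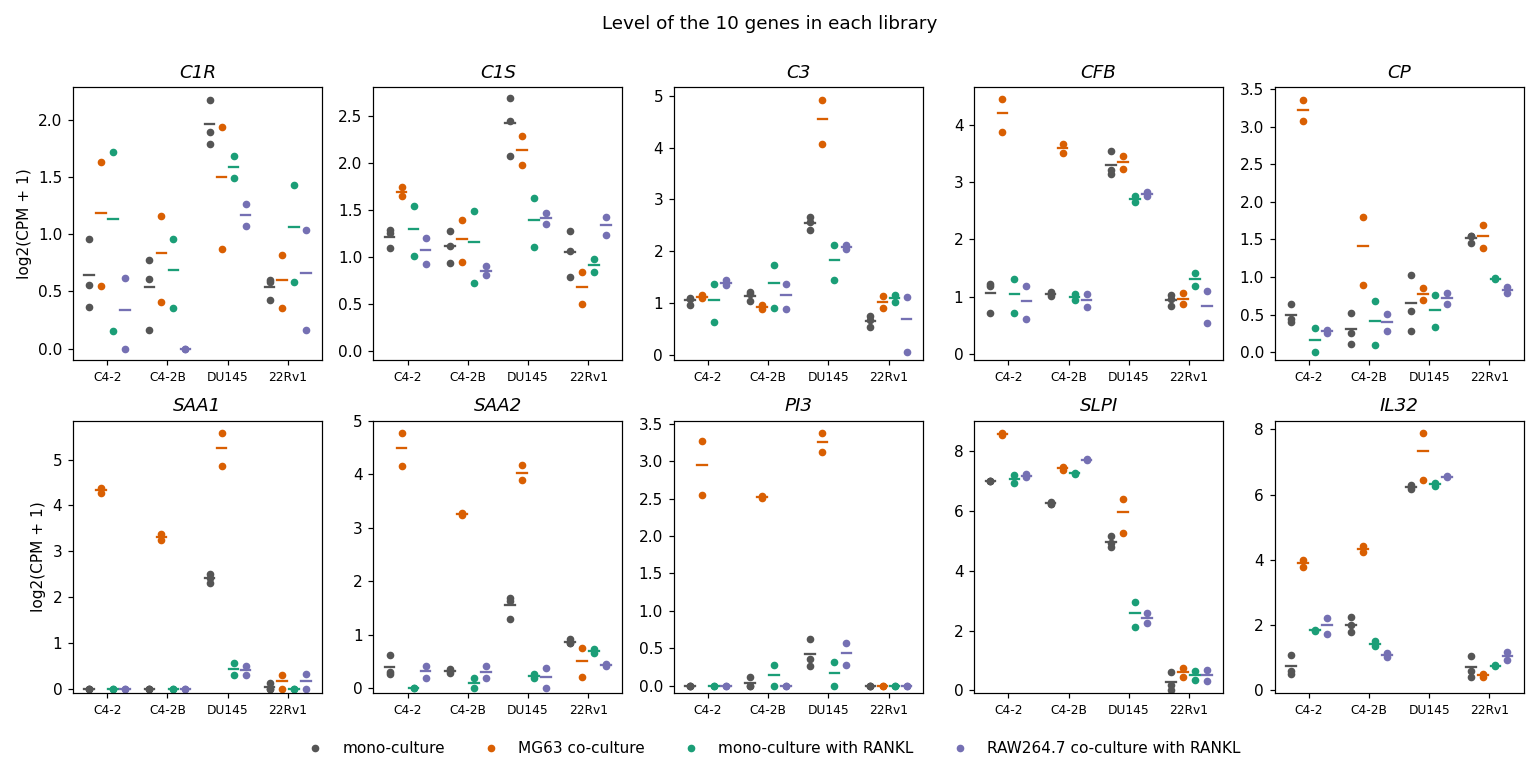
Level of each of the 10 genes on the log2(CPM + 1) scale in all 36 libraries, with points for libraries and short lines for group means, by cell line and culture. In C4-2 and C4-2B, SAA1, SAA2 and PI3 exceed 1 CPM only with MG63, and in 22Rv1 all 3 stay under 1 CPM.

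SAA1 was at 0 counts in all 3 C4-2 mono-cultures and reached 19.7 and 18.4 CPM with MG63. In C4-2B it went from 0 counts in 3 libraries to 8.55 and 9.43 CPM. Set against a floor of 3 counts in each library, the rise was at least 195-fold in C4-2 and in C4-2B at least 99-fold. In DU145 SAA1 was already at 3.97, 4.63 and 4.33 CPM alone and was at 28.1 and 46.6 CPM with MG63, 8.67-fold higher. SAA2 was at 26.3 and 16.9 CPM in C4-2 with MG63 against 0.54, 0.194 and 0.229 CPM alone, a 67.3-fold ratio. The fitted log2 fold change of SAA2 was 6.16 there, 6.80 without the first mono-culture and 5.83 to 6.44 without any 1 of the other libraries. It was at 8.47 and 8.66 CPM in C4-2B and at 13.8 and 17 CPM in DU145. The groups did not overlap in these lines for either gene. In 22Rv1 SAA1 stayed at or under 3 counts in both cultures, and SAA2 was 0.688 and 0.147 CPM with MG63 against 0.786 to 0.882 CPM alone.

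Because the mono-cultures with RANKL have the depth of the MG63 co-cultures, they give a second reference. SAA1 was at 0 counts in both RANKL mono-cultures of C4-2 and of C4-2B as well. The MG63 co-cultures were at least 76-fold higher than that floor in C4-2, and for C4-2B the bound was at least 37-fold. The ratio of CFB in C4-2 was 16.3 against RANKL mono-cultures and 16 against those without. Other ratios moved in either direction on this reference. IL32 in C4-2 was 5.38-fold higher with MG63 than with RANKL against 20.8-fold without it, and SLPI in C4-2B 1.13-fold against 2.26-fold. IL32 in C4-2B was 11.5-fold higher with MG63 than with RANKL against 6.37-fold without it. In DU145, CFB was 1.66-fold and C1S 2.11-fold higher with MG63 than with RANKL, without overlap. Against the mono-cultures without RANKL their ratios were 1.03 and 0.779, and the groups overlapped. In DU145 SAA1 was at 0.231 and 0.484 CPM with RANKL, or 3.05 and 6.09 counts, and SLPI at 6.79 and 3.32 CPM, both under the mono-cultures without RANKL, so the ratios to MG63 were larger on this reference.

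The antiproteases differed in their starting level. PI3 was at 0 counts in the C4-2 mono-cultures and at 4.83 and 8.65 CPM with MG63, at least 69-fold higher. It was at 4.67 and 4.79 CPM in C4-2B with MG63, where the 3 mono-cultures were at 0, 0 and 0.0892 CPM, and in DU145 it went from 0.206 to 0.536 CPM up to 7.67 and 9.36 CPM. PI3 was at 0 counts in all 9 libraries of 22Rv1. SLPI was abundant in mono-culture without RANKL: 126 to 128 CPM in C4-2, 74.8 to 77.3 CPM in C4-2B and 26.7 to 34.5 CPM in DU145, but at most 0.536 CPM in 22Rv1. With MG63 it reached 375 and 386 CPM in C4-2. C4-2B held 178 and 164 CPM and DU145 37.3 and 84.5 CPM. PI3 and SLPI, both whey acidic protein family inhibitors, lie 75694 bases apart on chromosome 20.

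IL32 was highest in DU145 in every culture. It was at 14.9 and 12.7 CPM in C4-2 with MG63 against 0.396 to 1.09 CPM alone, and at 20.6 and 18 CPM in C4-2B against 2.42 to 3.68 CPM. In DU145 it was 74.1, 77.9 and 71 CPM alone, and 86.1 and 237 CPM with MG63. The second DU145 co-culture therefore carries most of that 2.17-fold ratio, and without it the fitted log2 fold change of IL32 fell from 1.18 to 0.29 and that of SLPI from 1.07 to 0.38. The 4 epithelial markers summed to 868 CPM in one of these co-cultures and 1470 CPM in the other, and their part in the values was not tested. One IL32 transcript, ENST00000530538, was at 0 CPM in the first of these co-cultures and 96.9 CPM in the second. The C3 retained-intron transcript ENST00000601475 behaved likewise, at 0 and 16 CPM, whereas the full-length C3 transcript ENST00000245907 was at 10.3 and 6.52 CPM against 1.52 to 1.83 CPM alone.

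**Figure D2:**
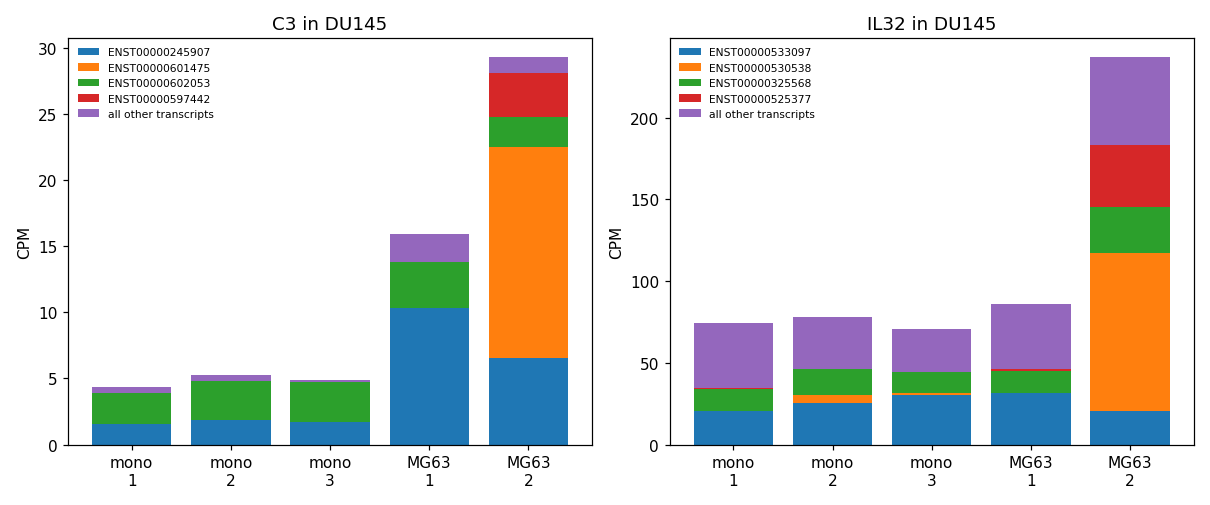
Level (CPM) of C3 and IL32 in the 3 mono-cultures and 2 MG63 co-cultures of DU145, as stacked bars with the 4 most abundant transcripts in colour and the rest together, each bar reaching the gene's total. The second MG63 co-culture holds 96.9 CPM of the IL32 transcript ENST00000530538, which is at 0 CPM in the first.

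Of the complement genes, CFB with MG63 was at 20.9 and 13.7 CPM in C4-2, and C4-2B held 10.3 and 11.7 CPM, against 0.642 to 1.34 CPM and 1.01 to 1.13 CPM alone. In DU145 it was at 7.81 to 10.6 CPM alone and 9.92 and 8.39 CPM with MG63, and the groups overlapped. C3 was higher with MG63 in DU145, at 15.9 and 29.3 CPM against 4.34 to 5.3 CPM, and at 1.13 and 1.22 CPM in C4-2 against 0.959 to 1.15 CPM, where the groups overlapped. In 22Rv1 C3 was at 0.872 and 1.19 CPM with MG63 against 0.451 to 0.685 CPM alone, and in C4-2B it was lower, at 0.844 and 0.955 CPM against 1.06 to 1.32 CPM, without overlap in either line. C1R and C1S, 9166 bases apart on chromosome 12, were low throughout: C1R was at most 3.53 CPM and C1S at most 5.47 CPM in any library, both in DU145 mono-culture. CP was at 7.41 and 9.22 CPM in C4-2 with MG63 against 0.324 to 0.567 CPM, and at 0.865 and 2.48 CPM in C4-2B. Of the CP counts in C4-2 with MG63, 50.6% were on the retained-intron transcript ENST00000490639 and 28.6% on protein-coding transcripts. Of the CFB counts there, 78.4% were on transcripts not in GENCODE 29, so its annotation-based lengths are incomplete.

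Per transcript length, SLPI was the highest of the 10 in C4-2 with MG63, at a length-scaled mean of 615 CPM, followed by SAA2 at 35.4 CPM. SAA2 was at 44 and 26.7 CPM and SAA1 at 31.4 and 30.1 CPM, so their order differed between the libraries. In DU145 IL32 was the highest on that scale in both MG63 co-cultures, at 95.4 and 292 CPM, followed by SLPI at 62 and 138 CPM and SAA1 at 46.6 and 75.8 CPM.

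RANKL alone was compared with mono-culture in all 36 libraries fitted together with edgeR. A gene was called at a fold above 2 and a Benjamini-Hochberg adjusted p under 0.05. The mono-cultures without RANKL were also the reference for MG63 and were known when the 10 genes were picked, and their greater depth cannot be told apart from the absence of RANKL. The counts of calls among the 10 are therefore a description, and nothing is read from them. All 10 genes passed the minimum of 100 counts, but SAA2 did so in MG63 co-cultures alone, CP in those of C4-2 alone and PI3 in 1 of those. C1S did so in DU145 mono-cultures alone and C1R in 1 of them. In DU145, 4 genes were called lower and 0 higher, where 2.44% of all genes were called lower and 2.77% higher. SLPI was at 29.4, 26.7 and 34.5 CPM without RANKL and at 6.79 and 3.32 CPM with it (log2 -2.47 ± 0.31 SE), and the log2 value was -3.10 without the first RANKL library and -2.05 without the second. SAA1 was at 3.97 to 4.63 CPM without and at 0.231 and 0.484 CPM with RANKL (log2 -3.50 ± 0.54 SE), and the log2 value was -4.09 without the second RANKL library. SAA2 was at 1.45 to 2.23 CPM without and at 0.143 and 0.192 CPM with it, under 3 counts in both libraries. C1S was at 3.22 to 5.47 CPM without and at 2.08 and 1.15 CPM with it (log2 -1.35 ± 0.37 SE), and at -0.98 without the second RANKL library. The groups with and without RANKL did not overlap for any of the 4 genes. PI3, past 2-fold lower but not called, was at 0 and 0.245 CPM with RANKL against 0.206 to 0.536 CPM without, and its groups overlapped. IL32 in DU145 was at 75.4 and 81.4 CPM with RANKL, a fitted difference of 0.18 ± 0.24 SE. The summed epithelial markers of DU145 were 1780 to 1790 CPM with RANKL against 1050 to 1080 CPM without, and their part in these values was not tested.

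**Figure D3:**
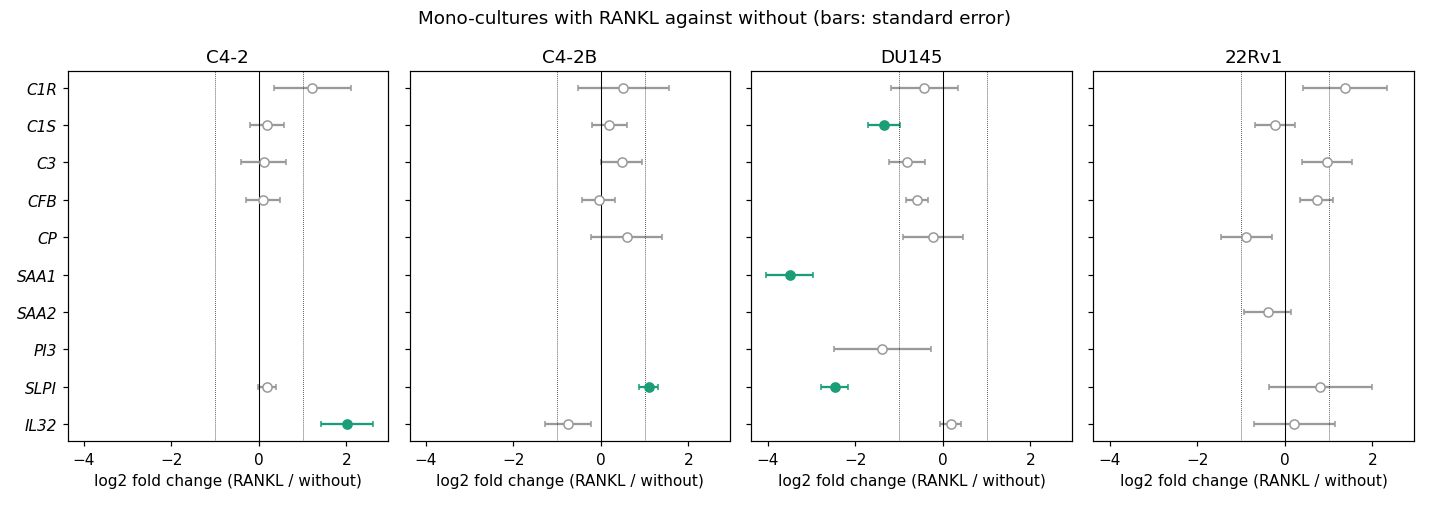
Fitted log2 fold change of each gene in mono-culture with RANKL against without, by cell line, with bars for the standard error, filled points for called genes and dotted lines at 2-fold. Genes at or under 3 counts in a whole group are left out. SLPI, SAA1, C1S and the uncalled PI3 sit below -1 in DU145, and SLPI sits at 1.09 in C4-2B.

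In C4-2B, SLPI was at 74.8 to 77.3 CPM without and at 154 and 150 CPM with RANKL (log2 1.09 ± 0.21 SE). It was the 1 gene of the 10 called there, where 0.877% of all genes were called higher and 1.25% lower. In C4-2, IL32 was at 0.396 to 1.09 CPM without and at 2.62 and 2.5 CPM with RANKL (log2 2.01 ± 0.60 SE). SAA2 was there at 5.39 to 18.1 counts in the deeper libraries without RANKL and at 0 counts in both libraries with it, a bound of at least 1.2-fold lower, under the fold used for a call. Of the 5 fits that each left out 1 library, 4 ended the call of IL32 in C4-2 and 3 that of SAA2. In C4-2, 1.35% of all genes were called higher and 0.914% lower. In 22Rv1 edgeR called 0 of the 10, 0 were at an unadjusted p under 0.05, and DESeq2 called 0, where 1.37% and 0.81% of all genes were called higher and lower. The median log2 fold change of the 10 was -1.08 in DU145, or -0.82 with genes at the floor set to their bound, against -0.01 over all genes.

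Differences of the RANKL change between lines were added after the data had been seen, rest on the same mono-cultures, and are given as values. Between DU145 and 22Rv1 the difference was -1.32 ± 0.46 SE for CFB, where edgeR called 5.64% of all genes. For SAA2 both DU145 libraries with RANKL were under 3 counts, so its fitted difference of -3.08 is no measured size. By levels, SAA2 was at least 8.2-fold lower with RANKL in DU145 and 1.32-fold lower in 22Rv1. Between C4-2B and C4-2 the difference was -2.76 ± 0.78 SE for IL32, where 1.65% of all genes were called. Between BPCa and LPCa edgeR called 0 of the 10, 2 were at an unadjusted p under 0.05, and DESeq2 called 1, where 2.31% of all genes were called.

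RAW264.7 co-culture was compared with RANKL mono-culture in the 16 libraries with RANKL. SLPI and IL32 were the 2 of the 10 genes that passed the minimum of 100 counts there. edgeR called neither in any line, DESeq2 called neither, and 1 was at an unadjusted p under 0.05 in C4-2B and 1 in DU145. Of all 11525 genes, 0.0% were called in C4-2, 0.026% in C4-2B, 0.0174% in DU145 and 0.00868% in 22Rv1. SLPI in C4-2B was 214 and 206 CPM with RAW264.7 against 154 and 150 CPM, and the groups did not overlap (log2 0.47 ± 0.11 SE, edgeR adjusted p = 0.26). IL32 in DU145 was 93 and 92.3 CPM against 75.4 and 81.4 CPM (log2 0.23 ± 0.09 SE, edgeR adjusted p = 0.69). The difference of this change between BPCa and LPCa was called for 0 of the 2 by edgeR and by DESeq2, with 1 at an unadjusted p under 0.05, and for 0.026% of all genes. SAA1 was at 0 counts in the RAW264.7 co-cultures of C4-2 and C4-2B, and PI3 was too. Of 12 macrophage and osteoclast markers, 8 to 10 in each line were above 3 counts with RAW264.7, and 8 or 9 with RANKL alone. TYROBP was at or under 3 counts in every group, mono-cultures included. The summed level of the 12 in C4-2B was 23.4 to 24.8 CPM with RAW264.7 against 23.6 to 23.8 CPM without. These counts are on human transcripts and RAW264.7 cells are mouse, so the markers cannot show whether RAW264.7 RNA was carried over.

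Levels in the RANKL mono-cultures are also described without a p-value for SLPI and IL32. The other 8 genes did not pass the minimum of 100 counts there, SLPI passed through C4-2 and C4-2B alone and IL32 through DU145 alone, so each had to differ between lines. SLPI was at 147 and 122 CPM in C4-2 and at 154 and 150 CPM in C4-2B, against 6.79 and 3.32 CPM in DU145 and 0.563 and 0.263 CPM in 22Rv1. IL32 was at 75.4 and 81.4 CPM in DU145 and at 2.62 and 2.5 CPM in C4-2. C4-2B held 1.81 and 1.54 CPM and 22Rv1 0.651 and 0.69 CPM. Both BPCa lines thus lay between the LPCa lines for IL32, and its fitted log2 difference of BPCa against LPCa, -1.78 ± 0.22 SE, comes from DU145. Of all genes, 11.4% were called higher and 15.3% lower in BPCa, and 18.6% were higher and 17.8% lower in DU145 than in 22Rv1. Between C4-2B and C4-2 edgeR called 0 of the 2, 0 were at an unadjusted p under 0.05 and DESeq2 called 0, against 0.685% of all genes. On the log2 scale the difference was 0.22 ± 0.11 SE for SLPI and -0.54 ± 0.23 SE for IL32.

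Related genes were counted on lists that exclude the 10. The lists hold SERPINA3 and LCN2, which the study picked out from these same MG63 co-cultures. LCN2 passed the minimum count through MG63 co-cultures alone. The counts with MG63 are therefore a description, and nothing is read from them. Of 21 acute-phase genes, 7 passed the minimum count in the cultures without RANKL, and LCN2, LRG1 and SERPINA3 were past 2-fold higher with MG63 in both C4-2 and C4-2B, where 2.8% and 2.45% of all genes were. SERPINA1 was also past 2-fold higher in C4-2, at no more than 6.3 counts. HPX, at a mean of 1.61 CPM against 5.06 CPM, was past 2-fold lower in C4-2 and A2M, at few counts, in C4-2B, where 2.1% and 2.66% of all genes were. The median log2 fold change of the 7 was 1.87 in C4-2, 0.51 in C4-2B, 0.10 in DU145 and 0.80 in 22Rv1, where the 3 genes past 2-fold higher, LCN2, SERPINA1 and SERPINA3, were at no more than 3.64 counts. LCN2, an iron-siderophore binding protein, reached a mean of 27 CPM with MG63 in C4-2, and 35.7 CPM in C4-2B, against 0.203 and 0.112 CPM alone. In DU145 it was at 7.79 against 0.609 CPM. SERPINA3, the inhibitor of cathepsin G, was at 122 and 56 CPM against 1.07 and 0.64 CPM. Of 32 complement genes, 11 passed, and 1 was past 2-fold higher in C4-2 and 1 in C4-2B, SERPING1, which is at no more than 4.61 counts there, against 2.8% and 2.45% of all genes. C8G was past 2-fold lower in C4-2B, where 2.66% of all genes were. In DU145, CFD was past 2-fold higher, at 3.89 and 11.6 CPM with MG63 against 3.49 to 4.26 CPM alone, and C2 lower. There 3.47% of all genes were higher and 2.93% lower. In 22Rv1, SERPING1 was past 2-fold lower (log2 -2.96 ± 2.88 SE), where 2.01% of all genes were. Of 26 antiproteases, 20 passed, and 4 were past 2-fold higher in C4-2 and 1 in C4-2B, where 2.8% and 2.45% of all genes were. SERPINE2 was at 7.49 and 12.1 CPM in C4-2 with MG63 against 3.11 to 4.06 CPM alone. The other 3 there, SPINK1, TFPI2 and WFDC2, were at no more than 8.11 counts with MG63, and SPINK1 in C4-2B was at 0.443 and 2.01 CPM. Past 2-fold lower were 2 in C4-2, WFDC3 and CST6, the latter at no more than 2.26 counts in either culture, and 1 in C4-2B, WFDC2, at 0 counts with MG63 and 0 to 0.527 CPM alone, so that the groups overlapped. In DU145, CSTA, at no more than 2.37 counts with MG63, and WFDC2 were past 2-fold higher, where 3.47% of all genes were. In 22Rv1, TFPI2 and TIMP2 were past 2-fold higher and WFDC2 lower, where 2.34% and 2.01% of all genes were. The medians of these lists in C4-2 were 0.05 for complement and 0.25 for antiproteases. Of 15 upstream receptors and factors, 13 passed, and 3 were past 2-fold higher in C4-2, 2 in C4-2B, 5 in DU145 and 2 in 22Rv1, where 2.8%, 2.45%, 3.47% and 2.34% of all genes were. IL6 in C4-2, at no more than 5.95 counts alone, was the 1 gene of them past 2-fold lower in any line. CEBPD, a C/EBP factor, was among the higher in all 4 lines, 2.37-fold in C4-2 and 2.14-fold in 22Rv1. The 5 in DU145 were CEBPB, CEBPD, IL6, NFKBIA and RELB. IL6 was there at 33.5 and 34 CPM with MG63 against 12.2 to 13.6 CPM alone, and RELB, an NF-kappa B subunit, at 13.6 and 18.9 CPM against 1.63 to 7.31 CPM.
The lists were chosen with results of the mono-cultures known, so their values against mono-cultures without RANKL are also given with no p-value, and the counts of calls are a description. In DU145, where SLPI, SAA1 and SAA2 were lower with RANKL, the acute-phase genes SERPINA1 (log2 1.72 ± 0.14 SE) and LCN2 (log2 1.61 ± 0.56 SE) were higher. SERPINA1 was at a mean of 139 CPM with RANKL against 45.6 CPM, and LCN2 at 1.72 and 1.73 CPM against 0.426 to 0.743 CPM. The antiprotease WFDC2, a relative of SLPI, was higher in DU145, at 16.7 and 18.1 CPM against 2.52 to 3.29 CPM. CFD, the protease that cleaves factor B, was higher in DU145, at 7.24 and 8.38 CPM against 3.49 to 4.26 CPM, and lower in C4-2B, at 2.73 and 5.15 CPM against 7.99 to 9.53 CPM. In C4-2, CLU, an inhibitor of the terminal complement complex, was higher with RANKL, at 136 and 155 CPM against 53.5 to 63 CPM, and the heme carrier HPX was lower, at 1.63 and 1.82 CPM against 4.42 to 5.85 CPM. Over the lists, RANKL called 1 of 11 complement genes in C4-2, C4-2B and DU145 each and 0 in 22Rv1. It called 1 of 7 acute-phase genes in C4-2 and in C4-2B, 2 in DU145 and 0 in 22Rv1. Of 20 antiproteases 1, 0, 4 and 1 were called in the order C4-2, C4-2B, DU145 and 22Rv1, and of 13 receptors and factors 0, 0, 1 and 3. Of all genes, RANKL called 1.35% higher and 0.914% lower in C4-2, 0.877% and 1.25% in C4-2B, 2.77% and 2.44% in DU145, and 1.37% and 0.81% in 22Rv1. RAW264.7 co-culture called 0 genes of the 4 lists in all 4 lines.
Among the RANKL mono-cultures, 10 of 12 receptors and factors were higher in DU145 than in 22Rv1, where 18.6% of all genes were. In BPCa against LPCa, 4 of 8 complement genes were lower and 0 higher, and 9 of 19 antiproteases were lower and 2 higher, where 15.3% of all genes were lower and 11.4% higher. A listed gene can pass the minimum of 100 counts through the line where it is high alone, and had then to differ, so nothing is read from these counts. IL6 and SOCS3, a feedback inhibitor of cytokine signalling, passed through DU145 alone. IL6 was at 9.27 and 10.9 CPM there against 0 and 0.545 CPM in 22Rv1, and SOCS3 at 7.3 and 9.18 CPM against 0.0616 and 0.115 CPM. C5, whose cleavage starts the terminal complement complex, passed through 22Rv1 alone, at a mean of 24.7 CPM against 3.37 CPM in DU145, and the BPCa lines were at 1.42 and 1.32 CPM. The oncostatin M receptor OSMR passed through C4-2 and C4-2B as well as DU145, and was at a mean of 182 CPM in DU145 against 2.39 CPM in 22Rv1 (log2 6.30 ± 0.11 SE, edgeR adjusted p = 1.8e-15).

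Over the 16 group means of log2(CPM + 1), the gene most like SAA1 was CCL20 (Pearson r = 0.968) and the gene most like SAA2 was PI3 (r = 0.965). The gene most like CFB was ETV6 (r = 0.921), that most like SLPI was EPHX1 (r = 0.978), and that most like IL32 was PLAAT4 (r = 0.977). For C3 it was UBXN1 (r = 0.961), for CP SLC9B2 (r = 0.833), for C1R UNC5CL (r = 0.888) and for C1S MARCHF3 (r = 0.932). These are descriptions over 16 groups that share cell lines and depth.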

How the data were processed

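RNA of the PCa cells was sequenced by the authors as poly(A), strand-specific libraries, and reads were quantified with kallisto. The deposited values are estimated counts per transcript, with no normalization across samples. The submitters' processing notes list hg19, and coordinates here are those of GENCODE 29 on GRCh38, where 95.4% of the transcripts were found. The table had 161149 lines and 159837 transcripts, and lines that repeated a transcript (2491) were used once. Transcripts were summed by gene symbol to 27852 genes. CPM used all counts as the total, and the 6878 transcripts without a symbol stayed in it.

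Estimated counts were rounded and tested with edgeR 4.0.16 (TMM, quasi-likelihood) in R 4.3.3, with genes of at least 100 counts in at least 1 fitted library kept. The 16 libraries with RANKL were fitted for RAW264.7 and for the lines, all 36 for RANKL, and the 20 without RANKL for MG63. DESeq2 1.42.0 was an alternative. The fits were tested on simulated data. No p-value is given for the 10 genes or the listed genes against mono-cultures without RANKL, which were known when they were picked, or for the 10 genes between lines, where the minimum count itself selects a gene that is high in 1 line. The 10 genes and the lists of related genes were chosen with earlier results of these data known. Named list genes are the 3 largest called changes of a list, or the 3 largest rises shared by C4-2 and C4-2B with MG63, and only some of them are given. The genes most alike are those with the highest correlation of group means.

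Nothing in the labels says that replicates came from separate cultures, so p-values measure the spread between these libraries, which may be technical. The SE values come from the same edgeR fits and include this spread, while floors cover counting error only. Equal replicate numbers did not pair the libraries: the mean correlation of their deviations came to -0.0329 between MG63 co-cultures and mono-cultures, 0.0186 for both mono-cultures and 0.0182 for RAW264.7 co-cultures and RANKL mono-cultures, over 8 pairs each.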

Additional observations from a re-analysis of the deposited data

Results flagged for a closer look

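The fitted change with RANKL differed between cell lines past the call threshold for 3 of the genes, in contrasts that rest on mono-cultures known when the genes were picked. Between DU145 and 22Rv1 the difference of log2 fold changes was -1.32 for CFB. That of SAA2 was fitted at -3.08, which is no measured size, as both DU145 libraries with RANKL were under 3 counts. Between C4-2B and C4-2 the difference was -2.76 for IL32. These contrasts were added after the data had been seen, and each lost its call when certain single libraries were left out. Groups of 2 or 3 libraries were too small here for a check of single libraries that stand apart. In the study's own principal component analysis, however, a sample of DU145 with MG63 lay outside the clusters. The study's text does not say which it was. The 2 deposited libraries of that group held 86.1 and 237 CPM of IL32.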

How the results depend on the processing

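The counts of the 10 genes called, or past 2-fold, were recomputed under each alternative. In C4-2 with RANKL the count was 1 in place of 2 with the 20 mono-cultures alone fitted. Among lines, BPCa against LPCa gave 4 without the filter and 5 with all 36 libraries fitted, and DU145 against 22Rv1 gave 5 with all 36, in place of 2, as more of the 10 genes were then tested. For the RANKL change in BPCa against LPCa, DESeq2 and an unadjusted p under 0.05 with a fold above 2 each gave 1 in place of 0. For DU145 against 22Rv1 it was 4 with DESeq2 and with that unadjusted threshold, and 1 without the filter, with counts scaled by transcript length, with protein-coding transcripts only (chosen after seeing the data) and with the replicate number as a block, in place of 2. The fit with the replicate block moved no other count by over 1.5 times.

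Leaving out 1 library at a time gave 0 to 2 called in C4-2 with RANKL, 3 to 4 in DU145, 0 to 1 for the RANKL change in BPCa against LPCa, 0 to 2 in DU145 against 22Rv1 and 0 to 1 in C4-2B against C4-2. With MG63 it gave 7 to 8 past 2-fold in C4-2 and C4-2B, 5 to 7 in DU145 and 2 to 4 in 22Rv1. The direction turned for C1R in C4-2 with MG63 without its first co-culture (-0.20, the highest value without a library being 1.98) and for SAA1 in 22Rv1 with MG63 without its second (-2.99, the highest being 4.49). The cause of these changes was not tested.

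With 2 libraries in most groups, levels of a few counts limit C1R, C1S, CP and all 10 genes in 22Rv1.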
